A study of Homo sapiens with 4 samples.

Results

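The genes described here encode enzymes that write or remove methyl groups on histones and DNA, or remove acetyl groups from histones and other proteins. They were picked from the platform's probe annotation by symbol alone: names in the KDM, KMT2, KMT5, HDAC, SIRT, DNMT, TET and PRMT series, plus EZH1, EZH2, EHMT1, EHMT2, SUV39H1, SUV39H2, SETDB1, SETD2, NSD1, NSD2, NSD3 and DOT1L, with KDM5C, KDM5D and KDM6A left out. The rule found 68 enzyme genes with 200 probe sets, out of 19775 named genes and 54675 probe sets on the array. It also matched 5 noncoding transcripts with 5 probe sets, which are described apart. Of the 68 genes, 66 passed the filter on dim probe sets, and DNMT3L and PRMT8 did not.

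The cells were HEK293, an established line from human embryonic kidney, grown for 7 days in DMEM with fetal calf serum. In the high glucose group the medium held 450 mg/dl glucose and in the low glucose group 100 mg/dl, with 2 arrays each, and the labels name no genotype or drug. Each array is a biological replicate per the series' design text, which does not say how cultures were kept apart, and p-values measure only the spread between these samples. The comparison asks which of these transcripts differed in level between high and low glucose.

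Histone methylation is written by SET-domain enzymes and by DOT1L, arginine methylation by PRMT proteins, and DNA methylation by DNMT proteins, all with S-adenosylmethionine as methyl donor. JmjC demethylases and TET proteins are dioxygenases that need iron, oxygen and alpha-ketoglutarate, the KDM1 demethylases use FAD, HDAC enzymes of the classical type use zinc, and sirtuins consume NAD. These small molecules come from intermediary metabolism, so the enzymes are often discussed as points where nutrient supply meets chromatin. Transcript levels, which are all that was measured here, say nothing of enzyme activity or of the marks themselves.

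Signals were in arbitrary intensity units, with the trimmed mean at 200.02 on each array and a filter signal of 32.9. Of 7 markers listed for HEK293, 6 were above that signal, among them VIM, KRT8 and KRT18, whereas NEFM was below it on every array (3.23 to 28.8). These markers were not level between the groups. In high glucose VIM was lower by 0.91 log2 units, and KRT8 and KRT18 were higher by 1.06 and 1.07. LHX1 was higher too, from a low glucose mean of 26.7, below the filter signal, and NEFL and PAX2 did not pass (limma, adjusted p under 0.05). Among markers of other cell types, 0 of 3 leukocyte genes with a probe set, 0 of 3 hepatocyte, 1 of 3 endothelial and 2 of 4 fibroblast genes (COL1A1 and COL3A1, not LUM and DCN) were above it. Summed signals over the fibroblast markers were 516 and 521 in high glucose against 322 and 348 in low glucose. The 24 probe sets for poly-A spike transcripts separated the groups, all with higher signals in high glucose. Their median difference was 1.94 log2 units (3.84-fold), and 0 of the 66 enzymes rose by as much in the brightest probe set, while 1 dimmer HDAC8 probe set did. The part of the spikes, of the HEK293 markers and of the fibroblast markers in the enzyme results was not tested. Fewer cells making a transcript and less of it per cell cannot be told apart in such bulk RNA.

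As a class the enzymes did not move one way. Of the 66 measured, 11 were higher in high glucose, 23 were lower and 32 did not pass (limma, adjusted p under 0.05). That is 51.5% called, against 57.6% of all 12242 measured genes, 16.7% called higher against 24.3%, and 34.8% called lower against 33.3%. These shares lie near the background, or under it for higher calls, and are no result about the enzymes. The median log2 difference was -0.063 over the enzymes and -0.10 over all genes. Changes of at least 1.5-fold among the calls were found for 4 higher and 10 lower enzymes, or 6.06% and 15.2%, where all genes gave 10.8% and 19.3%. The arrays of the groups did not overlap for 50 of the 66 (75.8%), and for 79.8% of all genes. Enzyme differences ranged from -1.32 for HDAC9 to 1.15 for PRMT3, and those of all genes from -5.60 to 9.09.

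**Figure D1:**
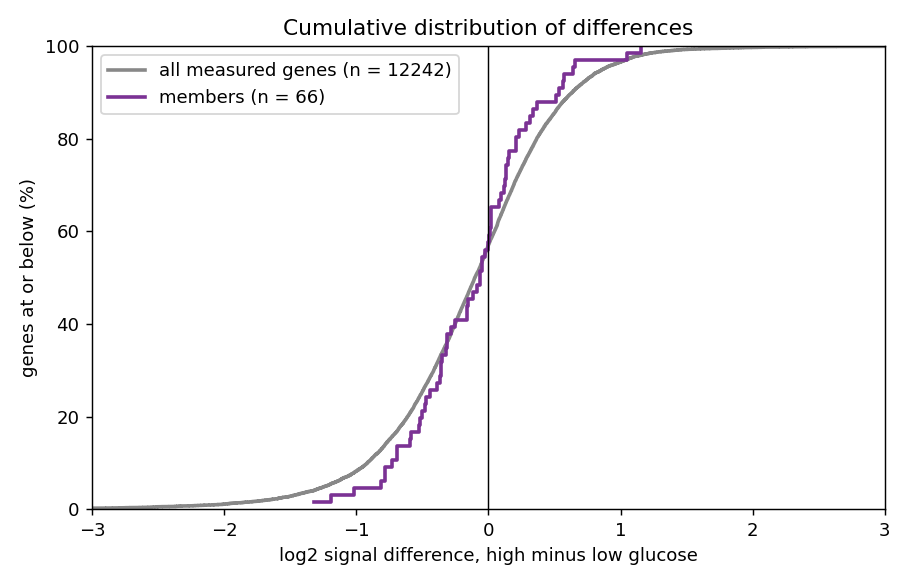
Cumulative share of genes (vertical axis, percent) at or below each log2 signal difference, high minus low glucose (horizontal axis), for the 66 measured enzymes and all 12242 measured genes. Genes beyond the ends of the horizontal axis are not drawn, and the enzymes all lie between -1.32 and 1.15.

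The choice of scaling bears on the direction of small changes. Median centring shifted the all-gene median to 0.067, and turned the enzymes' counts into 18 higher and 14 lower. All 11 enzymes called higher with the authors' scaling were called higher after it too, as were 14 of the 23 called lower, and 0 of the called enzymes changed sign. The 9 that lost their call were KMT2B, KMT2C, KMT2D, KMT2E, KMT5B, KDM4B, HDAC5, SIRT1 and SIRT3, each with a difference between -0.50 and -0.25. Those gained, all higher, were KDM2B, KDM4A, KDM4D, KDM5B, NSD1, PRMT9 and SUV39H1. Among all calls the share of higher genes went from 42.1% to 58.8%, and among the enzymes' calls from 32.4% to 56.2%.

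**Figure D2:**
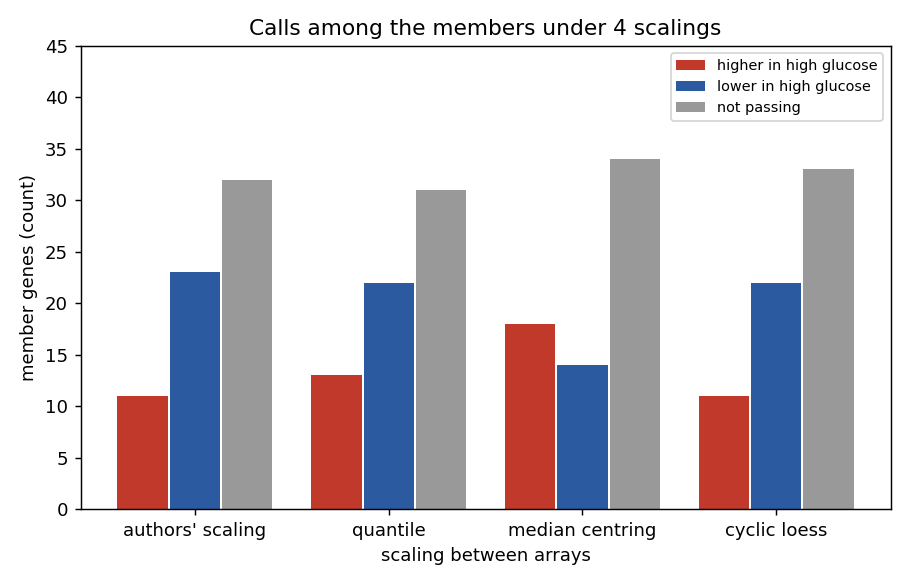
Number of measured enzymes (vertical axis) called higher, called lower or not passing with the authors' scaling and after 3 further scalings between arrays (horizontal axis). Quantile normalization gave 13 higher and 22 lower and cyclic loess 11 and 22, and only median centring gave more higher than lower calls.

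Arginine methyltransferases held the strongest rises. Of 7 measured, 4 rose, 1 fell and 2 did not pass, with a median of 0.28 log2 units, where 24.3% of all genes rose, 33.3% fell and the median was -0.10. PRMT3, a cytosolic enzyme known for methylating ribosomal protein S2, gave 1101 and 1093 in high glucose against 468 and 519 in low glucose. Both high glucose arrays stood far above the low glucose pair, and the rise was 2.22-fold (1.15 ± 0.071 log2 units, SE, adjusted p = 1.5e-05). PRMT7, which makes monomethylarginine, had signals of 314 and 393 against 159 and 181. The replicates differed by more here, but the groups did not overlap, and the rise was 2.07-fold (1.05 ± 0.14, adjusted p = 5.1e-04). PRMT3 and PRMT7 each had 1 kept probe set, so each rise rests on that probe set. PRMT5, the main enzyme of symmetric dimethylation, rose 1.49-fold from 1005 and 977 to 1523 and 1423 (adjusted p = 1.7e-04). Of its other probe sets, 1 rose by 0.40 log2 units and 1 stood at 0.17 without passing (probe-set fit, adjusted p = 0.052). PRMT6 rose 1.22-fold (adjusted p = 0.0099), a call lost without high glucose replicate 1 and without the intensity trend.

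PRMT2, a family member that also acts as a nuclear receptor coactivator, went the other way. It read 566 and 521 in high glucose against 827 and 805 in low glucose, a fall by 0.59 ± 0.069 log2 units (adjusted p = 2.8e-04). Its 3 brightest probe sets all fell, by as much as 1.37 log2 units, and the dimmest kept one was at -0.38 and did not pass. PRMT1, which accounts for most asymmetric arginine methylation in cells, gave 4866 and 5307 against 5170.0 and 5867, with overlapping groups. Its difference was -0.12 with an interval of -0.32 to 0.083. PRMT9 stood at 0.21 ± 0.10 and did not pass with the authors' scaling, and was called after quantile normalization and median centring.

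The promoter windows of PRMT3 and PRMT7, the 2 largest rises, are shown because both belong to the same family and rose together. They come from RefSeq (GRCh38.p14) and cover 250 bases before to 50 after the annotated start. Both lie on the plus strand, at chr11:20387466-20387765 and chr16:68310769-68311068. Here and below, only the first window listed for a gene symbol was used, so any other start of a gene is not covered. Capitals mark matches, on either strand, to the motifs searched: the E-box CACGTG, the cyclic AMP response element TGACGTCA, the ATF4-C/EBP element TGATGNAA, the NF-Y box CCAAT, the GC box GGGCGG, and E2F as TTTCCCGC or TTTGGCGC.
PRMT3: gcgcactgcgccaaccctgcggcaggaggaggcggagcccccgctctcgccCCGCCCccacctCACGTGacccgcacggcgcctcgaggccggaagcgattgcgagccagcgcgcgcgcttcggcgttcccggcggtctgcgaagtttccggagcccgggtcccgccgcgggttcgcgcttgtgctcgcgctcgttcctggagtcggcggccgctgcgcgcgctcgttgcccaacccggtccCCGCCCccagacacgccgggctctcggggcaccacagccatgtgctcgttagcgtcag
PRMT7: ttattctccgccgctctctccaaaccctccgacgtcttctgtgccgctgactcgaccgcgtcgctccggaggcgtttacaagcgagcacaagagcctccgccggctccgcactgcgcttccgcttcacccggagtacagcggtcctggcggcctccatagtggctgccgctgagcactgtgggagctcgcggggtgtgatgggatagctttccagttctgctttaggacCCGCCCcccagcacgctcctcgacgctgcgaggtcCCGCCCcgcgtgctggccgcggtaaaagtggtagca
PRMT3 held 1 E-box and 2 GC boxes, and PRMT7 held 2 GC boxes. Neither window held the other motifs. Over all 27305 windows, 7.43% held the E-box and 44.6% a GC box.

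**Figure D3:**
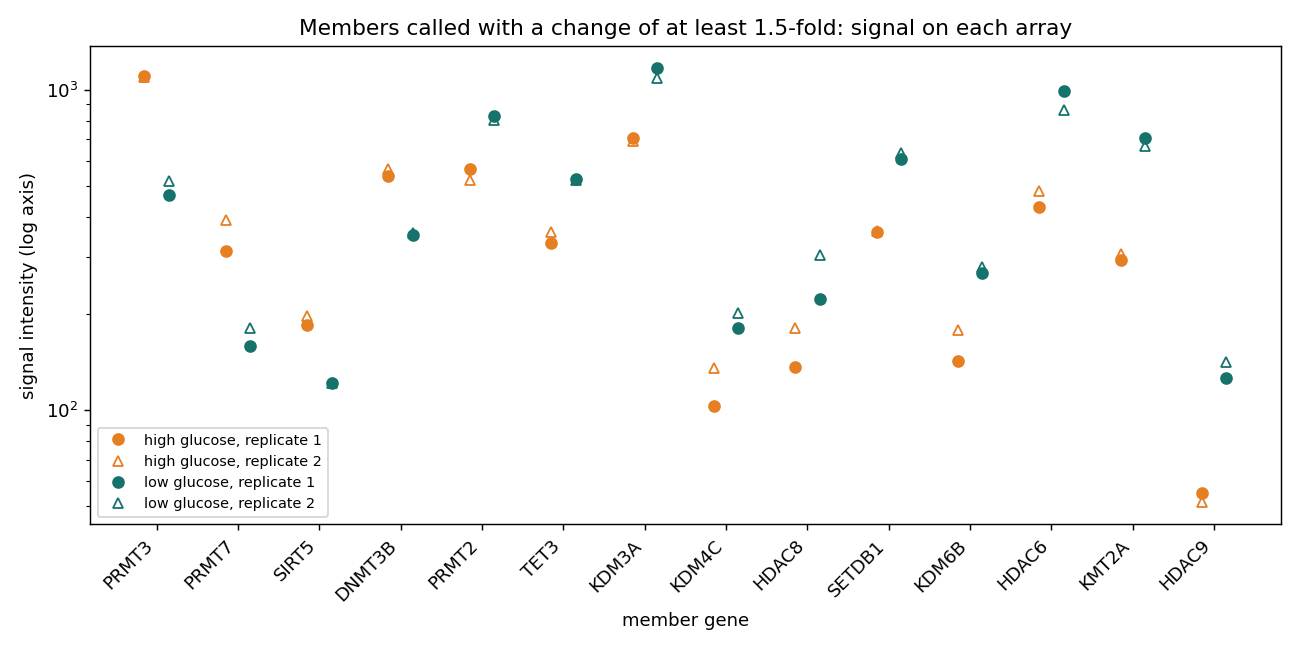
Signal intensity on each of the 4 arrays (vertical axis, log scale) for the 14 enzymes called with a change of at least 1.5-fold, ordered from the largest rise to the largest fall. In every one of them both high glucose points lie on the same side of both low glucose points, and levels cannot be compared between genes because each has its own probes.

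Among DNA methyltransferases, DNMT3B alone passed, 1 of 3 measured, where 57.6% of all genes passed. This de novo enzyme rose 1.56-fold, from 352 and 356 in low glucose to 539 and 566 in high glucose (0.64 ± 0.074, adjusted p = 2.6e-04). It kept this call under every alternative that measured it. DNMT3B had 1 kept probe set, so the mean of probe sets could not change its difference. DNMT3A, the other de novo enzyme, gave 190.3 and 219 against 182 and 194. Its arrays overlapped, and all 3 of its kept probe sets missed the threshold, at 0.090 to 0.29. DNMT1, the maintenance enzyme that copies methylation after replication, read 2093 and 2106 in high glucose against 2475 and 2214 in low glucose. That was a difference of -0.16 ± 0.068 (adjusted p = 0.082), called lower after quantile normalization and without low glucose replicate 2.

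The TET dioxygenases, which oxidise methylcytosine, split 3 ways. TET1 rose 1.48-fold in its brightest probe set, from 209.6 and 210.1 to 309 and 311 (adjusted p = 0.0019), and its other kept probe set fell by 0.64 log2 units (probe-set adjusted p = 0.0051). The direction for TET1 therefore rests on which probe set is read. TET3 fell 1.51-fold, from 525 and 521 to 333 and 359.5 (adjusted p = 5.0e-04), and its second probe set fell by 1.06. TET2 read 222 and 221 in high glucose against 222 and 278 in low glucose and did not pass, at -0.17 with an interval of -0.47 to 0.14.

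Readers and cofactors of DNA methylation, taken as a partner list, were called in 9 of 10 measured genes, 4 higher and 5 lower, against 57.6% of all genes. MBD4, a glycosylase that repairs mismatches at methylated sites, rose by 1.14 log2 units and TDG, the glycosylase that acts after TET oxidation, by 0.50. GADD45B rose by 0.53 and GADD45A fell by 1.12.

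All 5 KMT2 genes were lower in high glucose in their brightest probe sets, where 33.3% of all genes were lower. They encode the MLL family, best known for histone H3 lysine methylation at promoters and enhancers. The label H3K4 was given to all 5 by symbol, KMT2E included, and their activity was not measured. KMT2A fell 2.29-fold, from 705 and 667 to 293 and 306 (1.19 log2 units down, SE 0.076, adjusted p = 1.7e-05). The other 4 fell by far less, between 0.25 and 0.37 log2 units. KMT2D, for example, read 1014 and 885 in high glucose against 1248 and 1116 in low glucose, so the groups lay close together without overlapping. After median centring KMT2A was the only one of the 5 still called. KMT2B also lost its call when high glucose replicate 1 or low glucose replicate 1 was left out, with the replicate block and without the filter. It, KMT2C and KMT2D also lost the call without the intensity trend. KMT2C lost it when any array other than low glucose replicate 2 was left out, and after quantile normalization, and KMT2D without high glucose replicate 2 or low glucose replicate 1.

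Probe sets of several KMT2 genes disagreed. KMT2A has 9 kept probe sets, of which 2 fell, 3 rose and 4 did not pass, with differences from -1.19 to 1.02. The one at 1.02 had a low glucose mean below the filter signal, and a probe set with such a mean in 1 group passed the filter only through the other. Of its next brightest, 1 read 418 and 394 in high glucose against 470.1 and 484 in low glucose (-0.23), and 1 read 351 and 383 against 281 and 310.5 (0.31). The mean over its probe sets stood at -0.0079 and was not called. KMT2C had 2 that fell and 1 that rose by 0.87, and KMT2E 1 that fell, 1 that rose by 0.35 and 1 at -0.016. For KMT2D all 3 differences were negative and 1 was called. A single value per gene is therefore a statement about its brightest probe set in this family.

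**Figure D4:**
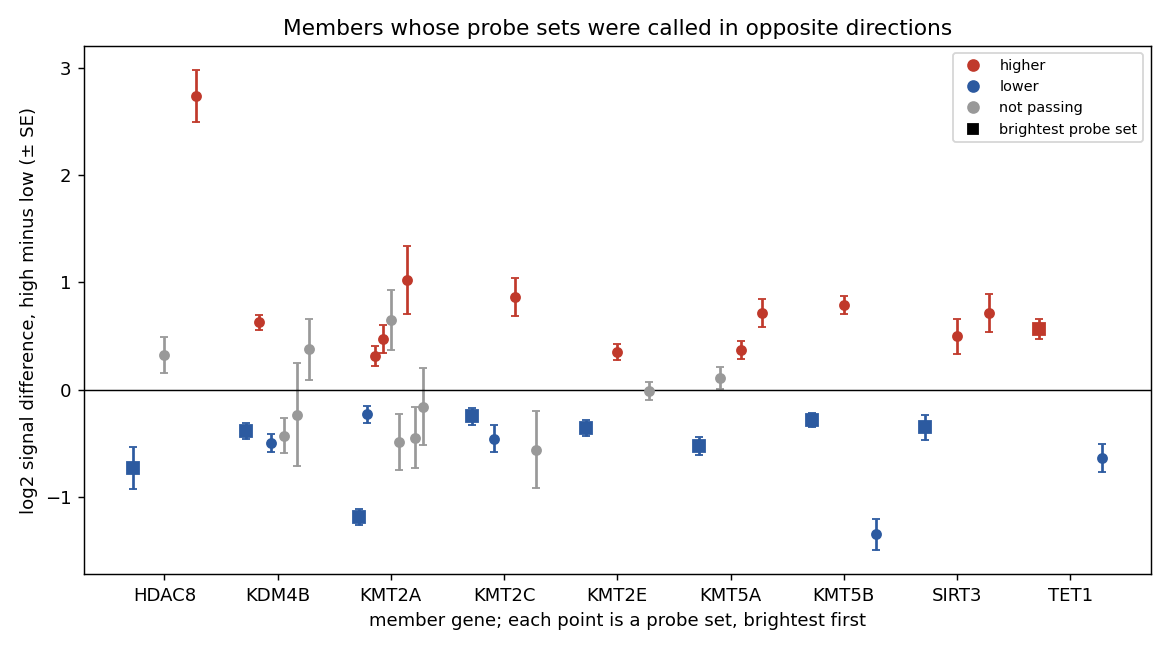
Log2 signal difference ± SE, high minus low glucose (vertical axis), of every kept probe set of the 9 enzymes (horizontal axis) with calls in opposite directions, ordered by brightness with the brightest as a square. HDAC8 spans -0.73 to 2.74 and KMT2A -1.19 to 1.02.

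Taking all 40 measured enzymes with more than 1 kept probe set, 5 had every probe set called the same way, 9 had calls in opposite directions, 21 had some called and some not, and 5 had none called. The 9 were HDAC8, KDM4B, KMT2A, KMT2C, KMT2E, KMT5A, KMT5B, SIRT3 and TET1. These counts include called probe sets with a mean below the filter signal in 1 group. Such probe sets were counted for HDAC6, KDM6B and SUV39H2, which are among the 5. The only HDAC8 probe set called higher was of this kind too, and so was 1 of KMT2A. Over the 150 kept probe sets of the enzymes, 76 were called (50.7%), 30 higher and 46 lower, while 50.4% of all 27307 kept probe sets were called. The other 50 probe sets of these genes were below the filter. Probe sets of one gene can report different transcript ends or isoforms, and which ones they report was not analysed here.

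Enzymes of the repressive H3K9 mark diverged. Of 5 measured, 2 rose, 1 fell and 2 did not pass, where 24.3% of all genes rose and 33.3% fell. SETDB1, which silences retroelements with its partner TRIM28, read 358 and 363 in high glucose against 606 and 634 in low glucose. The replicates lay close together and the fall was 1.72-fold (0.78 ± 0.072 log2 units, adjusted p = 8.7e-05). The other kept SETDB1 probe set was at -0.30 and did not pass. SUV39H2, a heterochromatin enzyme, rose 1.45-fold, from 441 and 403 to 616 and 606 (adjusted p = 7.0e-04), and its second probe set, called higher too, had a low glucose mean below the filter signal (30.5 and 32.4). EHMT2, also called G9a, rose 1.24-fold (546 and 619.7 against 471 and 466, adjusted p = 0.013), a call lost without high glucose replicate 2, without the intensity trend and in the mean of probe sets. Its partner EHMT1 stood at -0.061. SUV39H1 gave 629 and 669 against 574 and 640.1, overlapping, at 0.098 with an interval of -0.084 to 0.28.

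For the H3K27 enzymes of Polycomb complex PRC2, neither brightest probe set differed beyond its error. EZH2 read 583 and 517 in high glucose against 538 and 554 in low glucose, a difference of 0.0075 ± 0.080 with an interval of -0.18 to 0.19. EZH1, the form typical of non-dividing cells, was at 0.022 in its brightest probe set, but 2 dimmer ones fell by 0.60 and 0.74. The partner list of PRC2 and COMPASS subunits, COMPASS being the complex that carries KMT2 enzymes, had 4 of 19 higher and 10 lower, with a median of -0.20, beside 24.3% and 33.3% of all genes and their median of -0.10. HCFC1 fell by 0.86, PHF1 by 0.92 and PHF19 by 0.71, and DPY30 rose by 0.68.

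Lysine methylation along gene bodies, H3K36, is written by SETD2 and the NSD proteins. SETD2 was the only one of 4 called, where 57.6% of all genes were called. It read 367 and 312 in high glucose against 462 and 511 in low glucose (1.44-fold lower, adjusted p = 0.0038). Its other kept probe set was at -0.016 and did not pass. NSD2 and NSD3 overlapped between groups, with differences of 0.0087 and 0.017. NSD1 read 168 and 177 in high glucose against 146 and 147 in low glucose and did not pass (adjusted p = 0.16), while 2 of its dimmer probe sets rose by 1.48 and 0.87. Of the dimmer probe sets of NSD2 and NSD3, 2 and 1 fell. DOT1L, the sole H3K79 enzyme, was at -0.087 ± 0.12 in its brightest probe set and rose by 1.28 in the next.

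In the H4K20 family, KMT5A, whose protein peaks in mitosis, fell 1.44-fold in its brightest probe set (547 and 517 against 719 and 819.5, adjusted p = 0.0011). Of its 3 other probe sets 2 rose, by 0.37 and 0.72. KMT5B fell by 0.28 in its brightest probe set and by 1.35 in another, and rose by 0.79 in a further one. KMT5C read 156 and 51.4 on the high glucose arrays, the widest replicate gap among the enzymes by standard error (0.45), and 120.3 and 104 on the low glucose arrays, so it did not pass (-0.32). Without high glucose replicate 1 it was called lower, at -1.12. For KMT5A and KMT5B the direction turned when probe sets ending in _x_at or _s_at were left out, and KMT5B lost its call without high glucose replicate 2. Among 12 proliferation genes set beside these results 5 rose, 1 fell and 6 did not pass, where 24.3% of all genes rose and 33.3% fell. MKI67 rose by 1.10 and CCNB1 by 0.88 log2 units, and MCM2 fell by 0.28. CDK1 and TOP2A, at 0.0079 and 0.12, did not pass. The part of proliferation in the enzyme results was not tested.

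Of the 13 JmjC demethylases 1 rose, 5 fell and 7 did not pass, with a median of -0.045. Of all genes 24.3% rose and 33.3% fell, with a median of -0.10. KDM6B, which removes H3K27 methylation and is induced in inflammatory settings, read 143 and 177 in high glucose against 268 and 280.1 in low glucose. This was a 1.72-fold fall (0.79 ± 0.14, adjusted p = 0.0020), and all 5 of its probe sets fell, the dimmest to a mean below the filter signal and the others by 0.79 to 1.16. KDM3A, a hypoxia-inducible H3K9 demethylase, fell 1.61-fold, from 1171 and 1090.3 to 709 and 691 (adjusted p = 8.3e-05). KDM4C, with 103 and 135 against 180.1 and 201, fell by the same factor (adjusted p = 0.011). It lost the call without high glucose replicate 1 or low glucose replicate 2, and its other kept probe set was at -0.51 and did not pass. KDM2A, which binds unmethylated CpG islands, fell 1.36-fold and KDM4B 1.31-fold, although 1 of the 6 kept KDM4B probe sets rose by 0.63. Of the other KDM2A probe sets, 1 fell by 0.39 and 1 stood at 0.23 without passing. KDM2A and KDM4B both lost the call in the mean of probe sets.

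KDM5A, an H3K4 demethylase, was the one riser, with 819.6 and 747 in high glucose against 538 and 562 in low glucose (1.42-fold, adjusted p = 7.1e-04). Its 4 other kept probe sets were between -0.48 and -0.037 and none passed, so the rise rests on 1 probe set. KDM4A did not pass in its brightest probe set (0.21) and fell by 0.54 in its other. KDM2B, KDM5B, KDM4D and KDM7A had positive differences of 0.13 to 0.34 that missed the threshold, and a dimmer KDM5B probe set rose by 0.43. KDM3B and KDM8 stood at -0.045 and -0.36. The FAD-dependent enzyme KDM1A, or LSD1, read 1101 on both high glucose arrays and 1114 and 1099 in low glucose. Its interval, -0.13 to 0.12, was the narrowest among the enzymes, and KDM1B stood at 0.13 ± 0.11.

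Of the 7 histone deacetylases of classes II and IV, 3 fell, 0 rose and 4 did not pass, where 33.3% of all genes fell and 24.3% rose. HDAC9, a class IIa enzyme and MEF2 corepressor, showed the largest fall of all the enzymes. It read 55.1 and 51.4 in high glucose against 126 and 141 in low glucose, a 2.50-fold difference (1.32 ± 0.19 log2 units, adjusted p = 8.5e-04). This rests on the 1 probe set of 5 above the filter. HDAC6, the cytoplasmic tubulin deacetylase, fell 2.03-fold from 988 and 866 to 431 and 483 (adjusted p = 7.0e-05), and a second probe set was called lower too, from 62.5 and 98.1 to 21.5 and 25.8, a high glucose mean below the filter signal. HDAC5 fell 1.42-fold in its brightest probe set (353 and 251 against 387 and 461, adjusted p = 0.032), with a call that was lost after median centring, without the intensity trend and without high glucose replicate 2 or low glucose replicate 2. Its other kept probe set fell by 1.09 log2 units. HDAC4, HDAC7 and HDAC10 overlapped between groups. HDAC11 was at -0.48 and did not pass, while its dimmer probe set was called lower, with a high glucose mean just below the filter signal (29.2 and 35.5).

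For HDAC9 and HDAC6, the largest fall and a second fall of the same class, the RefSeq windows of the same build and length lie on the plus strand at chr7:18495499-18495798 and chrX:48801817-48802116. They are shown to set beside those of the 2 rising methyltransferases, with the same motifs in capitals.
HDAC9: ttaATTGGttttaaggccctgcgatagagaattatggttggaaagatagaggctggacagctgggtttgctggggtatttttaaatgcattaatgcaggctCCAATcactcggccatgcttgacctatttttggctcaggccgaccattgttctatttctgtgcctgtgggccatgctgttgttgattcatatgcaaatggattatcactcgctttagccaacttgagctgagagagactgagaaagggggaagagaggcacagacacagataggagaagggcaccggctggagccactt
HDAC6: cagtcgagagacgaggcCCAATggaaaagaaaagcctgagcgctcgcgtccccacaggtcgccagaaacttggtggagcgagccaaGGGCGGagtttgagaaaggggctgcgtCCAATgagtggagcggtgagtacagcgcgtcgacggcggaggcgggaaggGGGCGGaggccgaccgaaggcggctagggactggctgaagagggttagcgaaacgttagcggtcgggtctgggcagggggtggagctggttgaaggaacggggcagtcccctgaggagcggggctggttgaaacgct
HDAC9 held 2 NF-Y boxes and no GC box, and HDAC6 held 2 NF-Y boxes and 2 GC boxes. The NF-Y box stood in 35.7% of all windows.

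Of the 66 measured enzymes, 62 had such a window. An E-box lay in 2 of 11 windows of enzymes called higher, 6 of 22 called lower and 2 of 29 not passing. GC boxes lay in 7, 16 and 19 of these, and the NF-Y box in 3, 6 and 10. The CRE was found in 1, 0 and 1, and in 1.98% of all windows. E2F letters were found in 0, 0 and 4, and in 2.31% of all, and the ATF4-C/EBP element in 0, 0 and 0, and in 3.67% of all. These are letter matches in a short window, given as a description.

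Class I deacetylases, the catalytic cores of nuclear corepressor complexes, were called in 2 of 4, where 57.6% of all genes were called. HDAC1 rose 1.29-fold, from 2228 and 2208 to 2798 and 2931 (0.37 ± 0.057, adjusted p = 0.0011), a call kept under every alternative. HDAC1 had 1 kept probe set, so the settings that read other probe sets could not change its difference. HDAC2, its close paralog, read 3073 and 2988 against 3083 and 3100.2 and was at -0.029, with an interval of -0.16 to 0.10, in its brightest probe set. Its dimmer probe set read 146 and 138 in high glucose against 54.0 and 64.8 in low glucose, a rise by 1.26 (probe-set adjusted p = 0.0013). HDAC3, the NCoR-bound enzyme, was at -0.065, with 1039 and 1049 against 1067 and 1119.

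HDAC8 gave the widest disagreement. Its brightest probe set read 136 and 180.2 in high glucose against 222 and 304 in low glucose, 1.66-fold lower (adjusted p = 0.013), a call lost without the intensity trend and without high glucose replicate 1 or low glucose replicate 2. Another read 159 and 147 against 25.7 and 20.3, a rise by 2.74 ± 0.24 log2 units (probe-set adjusted p = 1.2e-04) from a low glucose mean below the filter signal. The third was at 0.32 and did not pass. In the partner list of deacetylase complex subunits 6 of 20 rose and 6 fell, with a median of 0.034, a share of calls near the 57.6% of all genes. MTA2 of the NuRD complex rose by 1.79 from 46.2 and 38.7, GATAD2A by 1.07 and SAP30 of the SIN3 complex by 0.66, and RCOR3 fell by 0.81.

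Sirtuins were called in 4 of 7 (57.1%), with 3 lower and 1 higher, near the 57.6% of all genes called. SIRT5, a mitochondrial enzyme that removes succinyl and malonyl groups, rose 1.57-fold, from 122 and 121 to 185 and 197 (0.65 ± 0.13, adjusted p = 0.0045). Its other kept probe set was at 0.14 and did not pass, and the mean of both was not called. SIRT1, the nuclear deacetylase most studied in nutrient signalling, read 570.2 and 580.5 in high glucose against 726 and 704 in low glucose, a fall by 0.31 ± 0.063 (1.24-fold, adjusted p = 0.0039). After median centring SIRT1 was at -0.14 and lost its call. SIRT2, mostly cytoplasmic, fell 1.39-fold (338 and 313 against 441 and 464), and its other probe set stood at 0.37 and did not pass.

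SIRT3, the main mitochondrial deacetylase, fell 1.28-fold in its brightest probe set (208 and 193 against 274 and 239, adjusted p = 0.037). Both other kept probe sets rose, by 0.50 and 0.71, and the call was lost when any array other than low glucose replicate 2 was left out, after each of the 3 further scalings and without the intensity trend. SIRT4 read 20.8 and 30.3 in high glucose, below the filter signal, and 42.1 and 46.4 in low glucose, and did not pass (-0.82 ± 0.35, adjusted p = 0.079). SIRT6 overlapped between groups in its brightest probe set and fell by 0.38 in its dimmer one, and SIRT7, a nucleolar enzyme, stood at -0.16. In a list of genes that supply the cofactors, 3 of 13 were higher and 4 lower, near the 24.3% and 33.3% of all genes. IDH1 rose by 0.64 and IDH2, its mitochondrial counterpart, fell by 0.77, NMNAT3 fell by 1.27, and AHCYL1 rose by 0.48.

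Grouped by the cofactor assigned to their role, the enzymes listed as using S-adenosylmethionine had 7 of 30 higher and 10 lower (median -0.027). The alpha-ketoglutarate dioxygenases had 2 of 16 higher and 6 lower (median -0.11), the zinc deacetylases 1 of 11 higher and 4 lower (-0.065), and the sirtuins a median of -0.31. Among all genes 24.3% were higher and 33.3% lower (median -0.10). Both FAD enzymes missed the threshold. Differences between these groups were not tested.

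**Figure D5:**
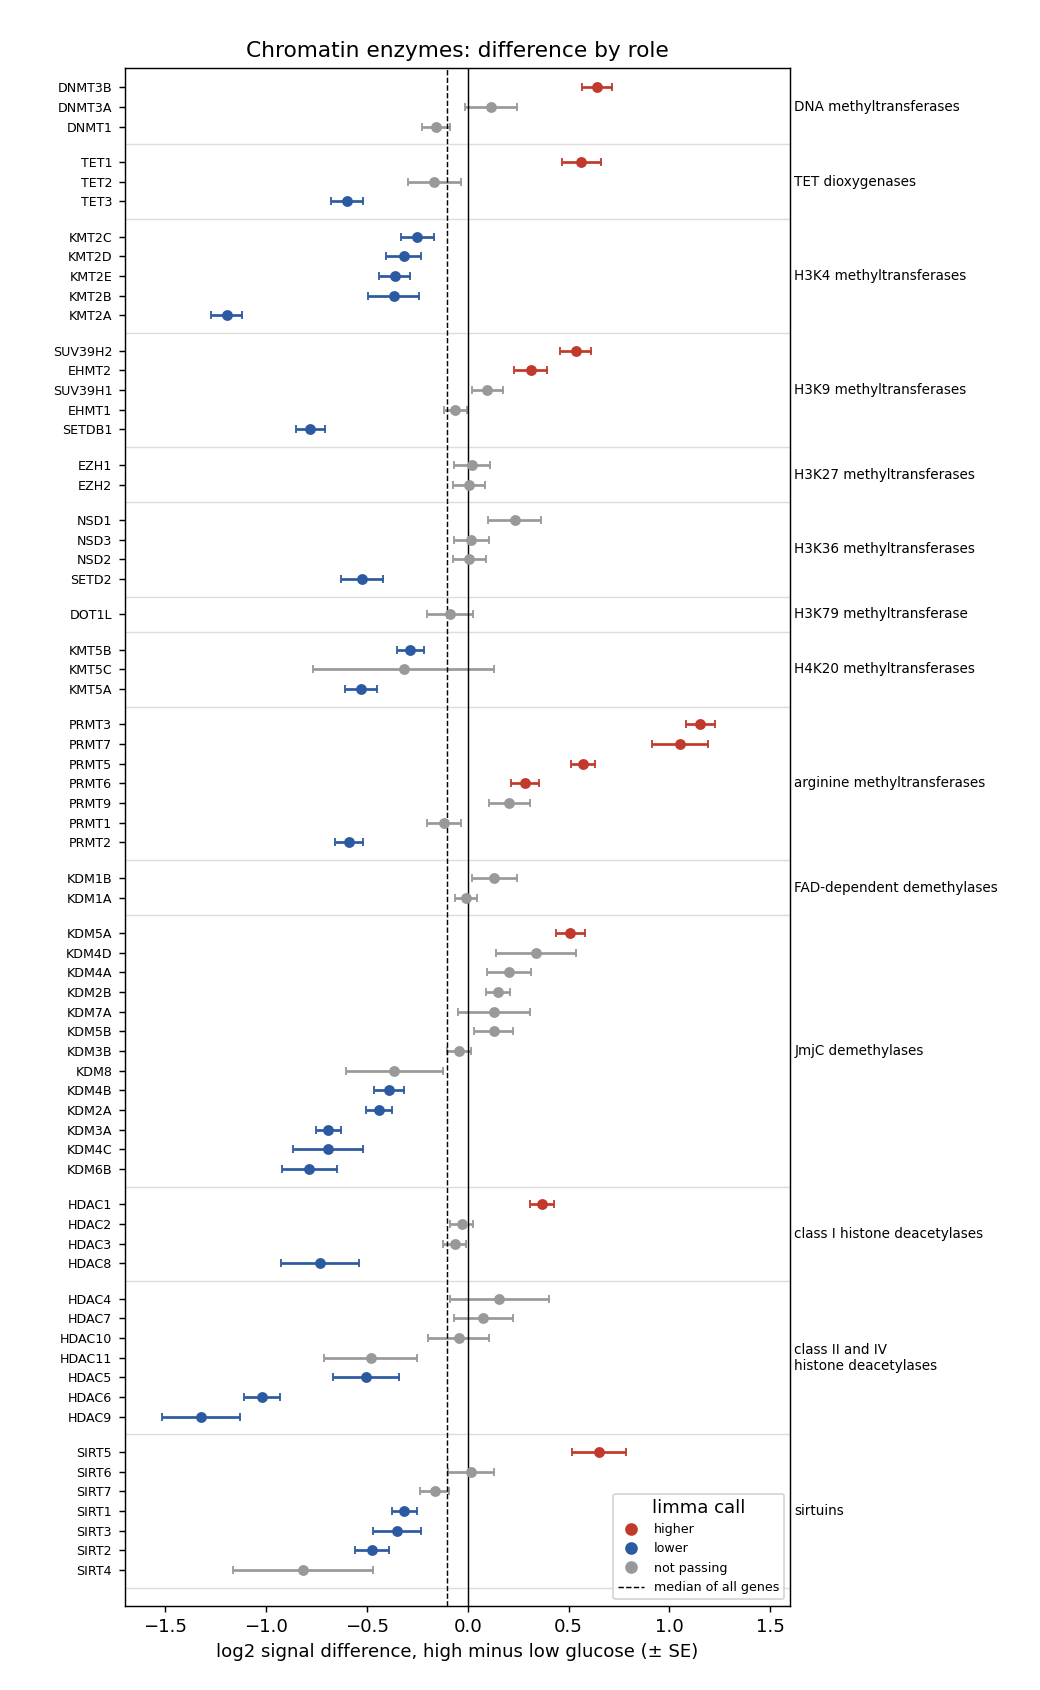
Log2 signal difference, high minus low glucose (horizontal axis, ± SE), of the brightest probe set of each of the 66 measured enzymes, grouped by role, with the median of all genes (-0.10) as a dashed line. All 5 KMT2 genes, labelled H3K4 methyltransferases, lie below 0 in these probe sets, whereas the arginine methyltransferases run from -0.59 to 1.15.

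Acetyltransferases, which act against the deacetylases, were taken as a further list, and 1 of 12 rose and 7 fell (median -0.24), where 24.3% of all genes rose and 33.3% fell (median -0.10). HAT1, which acetylates newly made histone H4, rose by 0.92, while KAT8 fell by 1.03, KAT6B by 0.45 and NAA60 by 0.26. Other lysine and arginine methyltransferases outside the symbol rule had 5 of 14 higher and 3 lower, 57.6% of all genes being called. CARM1, itself an arginine methyltransferase also known as PRMT4, rose by 0.99. SETD1B, an H3K4 enzyme not matched by the symbol rule, fell by 0.99, whereas SETD1A of the same list rose by 0.60 (adjusted p = 0.048). SETD5 fell by 0.49 and SMYD2 rose by 0.31. The median of this list was 0.15.

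The noncoding transcripts matched by symbol were dim. Only KDM7A-DT passed the filter, with 42.4 and 49.6 in high glucose against 42.7 and 54.4 in low glucose, and its difference was -0.073 ± 0.27 (probe-set adjusted p = 0.84). HDAC2-AS2, HDAC4-AS1, KMT2E-AS1 and PRMT5-AS1 were below the filter signal on every array. The protein-coding genes below the filter, DNMT3L and PRMT8, were not tested.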

How the data were processed

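Total RNA from 4 samples was labelled as biotinylated cRNA and hybridised to single-colour Affymetrix arrays, per the labels' protocols. The values are linear signal intensities deposited by the authors, 1 per probe set and array, and the submitters' processing notes name GCOS. Their 2% trimmed means (a trim of 0.02 at each end) were equal, so the arrays had been scaled to one level. No other step is given in the sources used here.

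The table held 54675 probe sets, 62 of them controls. The probe annotation named 1 gene for 41097, several for 1801 and none for 11777, and symbols were updated through RefSeq gene IDs, which changed 0 of the enzymes' symbols. Signals were log2-transformed with no pseudocount. Probe sets at or above the median mean signal (32.9) were kept, 27307 in all, and each gene was read from its brightest one (12242 genes). The groups were tested in R 4.3.3 with limma 3.58.1 (lmFit, eBayes with trend, 4 arrays, no covariate), two-sided, with Benjamini-Hochberg adjustment over all genes, or over all kept probe sets where a probe-set fit is named. An adjusted p under 0.05 was called. Errors are SE from the fit, and intervals are 95% intervals of the log2 difference. The test was checked on simulated data.

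The enzymes, role groups and partner lists were chosen with earlier results of these data known. Every enzyme could be named. Those past the threshold and 1.5-fold, and a fixed set of well-known ones, are given array by array. Up to 4 genes with the smallest p are given per partner list, and SETD1A was added to set beside SETD1B. No promoter window was searched elsewhere when missing. The alternatives were 3 scalings, 2 filters, a pseudocount of 16, no trend, the mean of probe sets, leaving out _x_at and _s_at probe sets, the replicate block and leaving out each array. The number of arrays limits precision.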

Additional observations from a re-analysis of the deposited data

Results flagged for a closer look

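Some control probe sets outside the gene comparison carried a group difference. Poly-A spikes were higher in high glucose by a median of 1.94 log2 units over 24 probe sets, and ribosomal RNA probe sets by a median of 1.73 over 6. They were noted because the enzyme comparison did not use them. Both high glucose arrays stood above both low glucose arrays for all 24 spike probe sets and for 5 of the 6 ribosomal RNA ones. In its brightest probe set no enzyme rose by as much as either median, whereas a dimmer HDAC8 probe set did. The 18 hybridisation controls and 14 other control probe sets had medians of the opposite sign, -0.34 and -0.21. The part of this difference in the enzyme results was not tested.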

How the results depend on the processing

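Counts of enzymes called stayed within 1.5 times of 11 higher and 23 lower under the alternatives other than median centring. Median centring gave 18 and 14 and moved their median to 0.11. Similar counts can hold other enzymes. With the mean of probe sets 7 of the 11 higher and 14 of the 23 lower calls were kept. In that setting 5 called enzymes changed sign, and 4 higher and 3 lower calls were new. Leaving out _x_at and _s_at probe sets moved the median to -0.17 over the 48 enzymes left. Leaving out each array gave 10 to 12 higher and 18 to 22 lower. With the replicate block 11 were higher and 22 lower, KMT2B losing its call. Labels do not say that equal numbers share a culture or day. The deviations of same-numbered arrays correlated with r = -0.0039. This shows no shared deviation, but it cannot tell whether same-numbered arrays were handled together. Of the 34 called enzymes, 14 kept direction and call under all alternatives that measured them. Among these, DNMT3B, HDAC1, HDAC9, KDM3A, PRMT3 and PRMT7 had 1 kept probe set each. The settings that read other probe sets could not turn their direction.

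Signs turned in 2 settings, given here for enzymes called in the results above, in the setting or in both. Turns of sign without a call in either are left out. With the mean of probe sets HDAC2 (0.62), HDAC8 (0.78), NSD3 (-0.32), NSD2 (-0.24) and DOT1L (0.60) were called with the turned sign. KMT5A (0.17), KDM5A (-0.073), SIRT3 (0.29) and TET1 (-0.038) turned there without a call. Without _x_at and _s_at probe sets NSD2 (-0.42), KMT5B (0.79), KMT5A (0.37) and KDM4A (-0.54) were called with the turned sign. KDM5A (-0.18) and SIRT2 (0.37) turned there without a call. HDAC2, NSD2, NSD3, DOT1L and KDM4A had not passed in the results above. Each of these settings reads other probe sets of the gene. With 2 arrays per group, the standard error ran from 0.055 to 0.45 among the enzymes, and its median was 0.080 for called ones and 0.11 for the others.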
